A study of Rattus norvegicus with 23 samples.

Results

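The comparison is between 3D rat brain cell aggregates that had received 120 ng/ml sepiapterin and aggregates that had received phosphate-buffered saline (PBS, the vehicle), both sampled at 6 hours. Its members were chosen by title and treatment label: 3 sepiapterin libraries and 3 control libraries, 6 of the 23 libraries in the series. All of them came from Sprague Dawley rat brain at embryonic day 15, and the aggregates had been kept for 14 days in agitated culture with new medium every 3 days. By label all 6 belong to the first of the study's library batches, so the batch label does not divide the groups. The titles of the controls carry a letter after the number, and those of the sepiapterin libraries do not. The labels do not say whether the 3 libraries of a group came from separate cultures. The p-values therefore measure the spread among these libraries, and that spread may be technical.

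Sepiapterin is a pteridine that cells take up and reduce, by way of the salvage pathway through sepiapterin reductase and dihydrofolate reductase, to tetrahydrobiopterin. Tetrahydrobiopterin is the cofactor of phenylalanine, tyrosine and tryptophan hydroxylase, and so of dopamine, noradrenaline and serotonin synthesis, and it is also required by the nitric oxide synthases. Aggregating cultures of fetal brain hold neurons and glia together in spheres, and a transcript is measured over all of these cells at once. In such bulk RNA, fewer cells of a type and less RNA per cell cannot be told apart. The series title asks whether early treatment with sapropterin, a synthetic tetrahydrobiopterin, affects brain development, and the samples at 6 hours give the earliest treated time in the series.

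Genes are given by Ensembl identifier. None of the identifiers (0 of 32494) matched a symbol in the reference table used here, so the tissue label was not checked against brain markers. The 25 lists of pterin, monoamine, nitric oxide, stress and cell type genes, with 298 symbols, were not analysed here. No statement is made about what a single gene does.

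The 6 libraries were deep and alike in their makeup. Reads in genes numbered 22476685, 26588314 and 21662777 in control replicates 1, 2 and 3, and 23068434, 23797639 and 22106299 in sepiapterin replicates 1, 2 and 3. Each library detected 17084 to 17439 genes, and 15400 were detected in all 6. The 10 genes with the most reads were the same in every library, and they took 4.58 to 4.84% of the reads in controls and 4.65 to 4.88% with sepiapterin. Reads outside any gene made up 15.9 to 16.6% of all tallied alignments in controls and 16.0 to 16.6% with sepiapterin, so the groups overlapped in this share.

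No gene with more than a trace of reads was present in one group and missing in the other. There were 962 genes with reads in controls only and 902 with reads in sepiapterin libraries only. The highest total over the 6 libraries among these genes was 14 reads, and 0 of them had enough reads to be tested. Reads in all 3 controls and in no sepiapterin library were found for 34 genes, and the reverse for 33.

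After removal of genes with low counts, 13657 genes were tested, which held 99.9% or more of the gene reads in every library. Levels are given as CPM, a gene's count relative to its library's reads in the genes tested. They are adjusted between libraries by the trimmed mean of M-values (TMM). CPM is not divided by transcript length, so it compares a gene between libraries and does not rank genes. Most genes tested, 7111, had a mean level from 10 to 100 CPM, and 2546 had 100 to 1000 CPM. Another 62 genes had 1000 CPM or more and took 12.6% of the reads, while the 939 genes under 1 CPM took 0.061%.

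Replicates of a gene lay close together. The median coefficient of variation (CV, the SD over the mean of the 3 libraries) was 4.40% in controls and 4.88% with sepiapterin. It was 22.4 and 23.8% for genes under 1 CPM, 9.92 and 10.7% from 1 to 10 CPM, 3.87 and 4.24% from 10 to 100 CPM, and 2.53 and 2.84% from 100 to 1000 CPM. Spread thus fell with the level in both groups and was slightly wider with sepiapterin in each of these classes. Over all genes tested, the SD of log2 CPM was the larger one in the sepiapterin group for 54.9% of genes. Among the 9719 genes with a mean of 10 CPM or more, only 14 had a CV over 20% in either group. In 9 of these 14 the library farthest from its own group's mean was sepiapterin replicate 3. Over all 9719 genes that library was the farthest in 2196, and sepiapterin replicate 1 in 2018.

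Distances between libraries of different groups overlapped with those within groups. The root mean square (RMS) difference in log2 CPM over the genes tested was 0.202 to 0.220 for the 3 pairs of controls and 0.220 to 0.239 for the 3 pairs of sepiapterin libraries. It was 0.206 to 0.233 for the 9 pairs of a control and a sepiapterin library. Every sepiapterin library lay nearer on average to the 3 controls, at 0.218, 0.219 and 0.221 for replicates 1, 2 and 3, than to the other sepiapterin libraries, at 0.229, 0.228 and 0.237. Control replicates 1, 2 and 3 lay nearer to the other controls, at 0.211, 0.203 and 0.211, than to the sepiapterin libraries, at 0.228, 0.210 and 0.220. Among genes with 10 CPM or more the medians were 0.098 for control pairs, 0.111 for sepiapterin pairs and 0.103 for pairs between the groups. A chi-square statistic on the counts was 2.48 to 4.69 times its degrees of freedom over the 15 pairs, above sampling noise alone. It does not tell whether libraries came from the same RNA or the same culture.

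**Figure D1:**
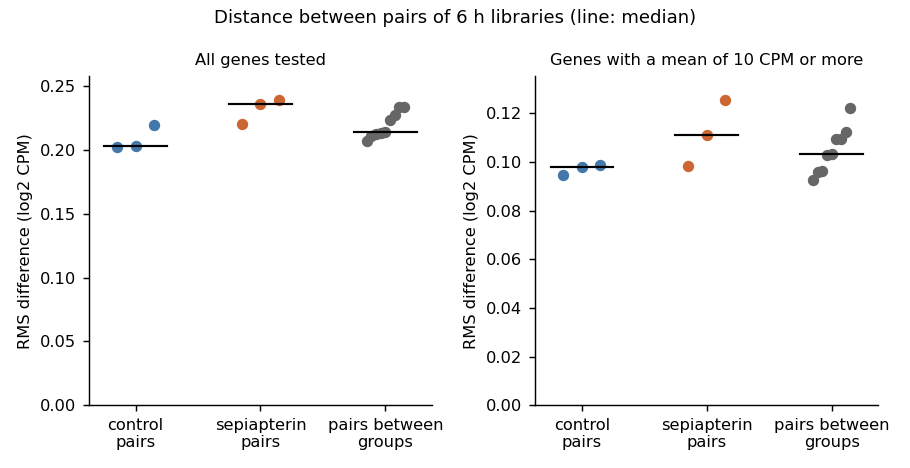
Root mean square difference in log2 CPM for each pair of 6-hour libraries, over all genes tested (left) and over genes with a mean of 10 CPM or more (right); points are pairs and lines are medians. Pairs between the groups (0.206 to 0.233, left) lie within the span covered by control pairs and sepiapterin pairs (0.202 to 0.239).

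In edgeR's quasi-likelihood test 1 of 13657 genes, or 0.00732%, had an adjusted p below 0.05 between the treatment groups. That gene was lower with sepiapterin, and 0 genes were higher. At an unadjusted p below 0.05 there were 786 genes, or 5.76%, with 359 higher and 427 lower. The sepiapterin libraries lay wholly above or wholly below the controls for 1501 genes, or 11% of those tested, with 793 higher (5.81%) and 708 lower (5.18%). Without any difference, groups of 3 and 3 libraries separate in this way with a probability of 0.1.

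The gene that fell was ENSRNOG00000013552. Its level was 259.2, 256.5 and 262.6 CPM in control replicates 1, 2 and 3, and 214.1, 210.9 and 228.2 CPM in sepiapterin replicates 1, 2 and 3. All 3 sepiapterin libraries were below all 3 controls, and sepiapterin replicate 3 was the nearest to them. The means were 259 ± 3.08 CPM in controls and 218 ± 9.19 CPM with sepiapterin (SD, n = 3 each), a fall of 1.19-fold. The log2 fold change was -0.25 ± 0.04 (SE), with a 95% interval from -0.33 to -0.18 and an adjusted p of 0.00457 (edgeR). Between 4966 and 6814 reads were counted for it per library, so counting error is small beside the difference.

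The direction of ENSRNOG00000013552 did not depend on any of the 6 libraries, but its call did. Its log2 fold change was -0.29 to -0.23 over the 6 fits that left out 1 library. The edgeR adjusted p rose to 0.0966 without control replicate 1, to 0.115 without control replicate 3 and to 0.101 without sepiapterin replicate 2. It was called by DESeq2 too, with an adjusted p of 1.2e-06, and by limma voom with quality weights, with 0.00333.

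The same gene was measured in separate libraries at 12 and 24 hours, which took no part in its choice. In fits of those times alone, the log2 fold change of ENSRNOG00000013552 was -0.56 ± 0.05 (SE) at 12 hours, with an edgeR adjusted p of 0.000426, and -0.42 ± 0.05 at 24 hours, with an adjusted p of 0.00567. It was 1 of 16 genes called at 12 hours (0.117% of genes tested) and 1 of 196 called at 24 hours (1.47%). Each of the 6 libraries at 12 hours moved the count there by over 1.5 times, from 1 gene without control replicate 1 to 495 without control replicate 3. Leaving out any 1 of the libraries at those times kept it called, with adjusted p-values of 0.000205 to 0.00515 at 12 hours and 0.000931 to 0.0425 at 24 hours. For samples numbered 10 and 11 among the 12-hour controls the titles and file headers disagree on which library is a repeat. With those controls taken by file header the value at 12 hours was -0.48 ± 0.04, with an adjusted p of 0.000163, and 1.05% of genes were called.

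Across the series the mean level of ENSRNOG00000013552 in controls was higher at 12 and 24 hours than at 6 hours, which was not tested. Scaled over the 21 libraries of 7 groups, control levels were 258 ± 160 CPM at 0 hours, 255 ± 3.25 at 6 hours, 379 ± 29.2 at 12 hours and 541 ± 32.1 CPM at 24 hours (SD, n = 3 each). The sepiapterin groups stood at 214 ± 9.17, 258 ± 4.47 and 406 ± 7.96 CPM at 6, 12 and 24 hours. The libraries at 24 hours belong by label to the second batch, so their levels do not tell time from batch, whereas the fold changes are within a batch there. The controls at 0 hours ranged from 158 to 443 CPM, a spread unlike that of the other groups.

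Whether the fall in ENSRNOG00000013552 grew after 6 hours was tested as a difference between effects. With the 0-hour controls left out, in a fit of 18 libraries, the effect at 12 hours minus that at 6 hours was -0.30 ± 0.07 (SE) on the log2 scale, with an unadjusted p of 0.000255 and an adjusted p of 0.42 in edgeR. For 24 hours minus 6 hours it was -0.17 ± 0.07, with an adjusted p of 0.29. Neither difference passed the threshold over all genes. With the 0-hour controls included, the standard error of the first difference was 0.37, and the adjusted p was 0.87.

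**Figure D2:**
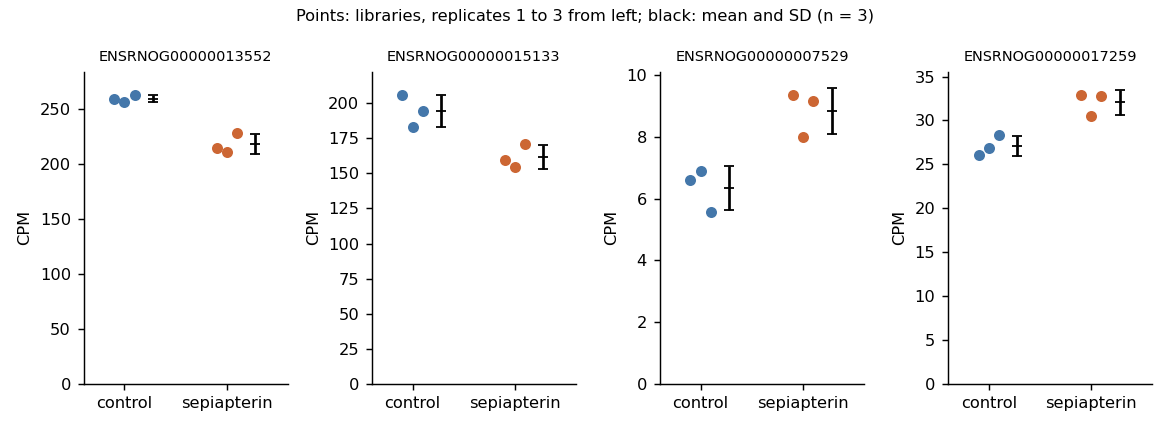
Levels in CPM of 4 genes in the 3 control and 3 sepiapterin libraries at 6 hours, with the mean and SD in black; every vertical axis starts at 0. The genes were chosen by their p-values in these libraries, and in each panel the groups do not overlap. Only the first gene, from 256.5 to 262.6 CPM in controls and from 210.9 to 228.2 CPM with sepiapterin, passed the test.

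The gene next in p-value was also lower. ENSRNOG00000015133 stood at 205.9, 183.4 and 194.4 CPM in control replicates 1, 2 and 3, and at 159.9, 154.4 and 170.9 CPM in sepiapterin replicates 1, 2 and 3. The groups did not overlap, and the gap between the lowest control and the highest sepiapterin library was smaller than the range within either group. Its log2 fold change was -0.27 ± 0.04 (SE), with an adjusted p of 0.0572 in edgeR, and it did not pass. It was called by DESeq2, with an adjusted p of 0.00012, and by limma voom, with 0.0188. In the libraries of later times ENSRNOG00000015133 had log2 fold changes of 0.22 ± 0.20 at 12 hours and -0.08 ± 0.19 at 24 hours, with 95% intervals of -0.30 to 0.74 and -0.54 to 0.39 that both include the value at 6 hours.

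No gene rose by the test, and the smallest adjusted p for a higher gene was 0.172. ENSRNOG00000007529, a gene at a low level, stood at 6.592, 6.888 and 5.558 CPM in control replicates 1, 2 and 3, and at 9.358, 8.003 and 9.176 CPM in sepiapterin replicates 1, 2 and 3. The groups did not overlap. The log2 fold change was 0.47 ± 0.11 (SE, edgeR adjusted p 0.172), from 120 to 217 reads per library. At 12 hours ENSRNOG00000007529 had a log2 fold change of 0.39 ± 0.12 (adjusted p 0.134), and at 24 hours -0.14 ± 0.15 (adjusted p 0.624).

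ENSRNOG00000017259 was the second gene with a higher estimate. It stood at 26.1, 26.9 and 28.4 CPM in control replicates 1, 2 and 3, and at 32.9, 30.5 and 32.8 CPM in sepiapterin replicates 1, 2 and 3, again without overlap. The log2 fold change was 0.24 ± 0.06 (SE, edgeR adjusted p 0.237). At 12 and 24 hours ENSRNOG00000017259 had values of -0.12 ± 0.09 and 0.10 ± 0.09.

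The genes with the smallest p-values were mostly lower with sepiapterin. All 8 genes with an adjusted p below 0.10 were lower, by 0.19 to 0.50 on the log2 scale, and their mean levels ran from 9.75 to 776 CPM. At an unadjusted p below 0.01 there were 114 lower and 62 higher genes, and below 0.001 there were 35 lower and 5 higher. These 40 genes made up 0.293% of those tested, and they were chosen by their values at 6 hours. The groups did not overlap in any of the 35 lower or 5 higher genes, the named genes among them. That gap came with the choice by p-value and is not separate support. The 35 lower genes had a median level of 83.8 CPM, against 28.7 CPM for all genes tested, and a median log2 fold change of -0.25.

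In the 35 lower genes sepiapterin replicate 3 stood nearer to the controls than the other sepiapterin libraries did. The median deviation from the control mean was -0.26, -0.31 and -0.19 log2 units in sepiapterin replicates 1, 2 and 3, and between -0.03 and 0.04 in the controls. Replicate 3 was the highest of the 3 sepiapterin libraries in 23 of the 35 genes. Without it edgeR called 47 genes, 45 of them lower, and 21 of the 35 were among the 47.

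The count of called genes moved with other libraries as well. It was 0 when control replicate 1 or control replicate 3 was left out, and 11 when control replicate 2 was. Leaving out sepiapterin replicate 1 gave 5 genes, 2 lower and 3 higher, and leaving out replicate 2 gave 1. The gene in the last of these fits was not ENSRNOG00000013552 but another gene that was lower. With all 6 libraries DESeq2 called 19 genes, 18 of them lower, and limma voom called 10, all lower. Joint fits that estimate the spread over more groups called 0, with 301 genes at an unadjusted p below 0.05 in the fit of 21 libraries and 416 in that of 18.

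**Figure D3:**
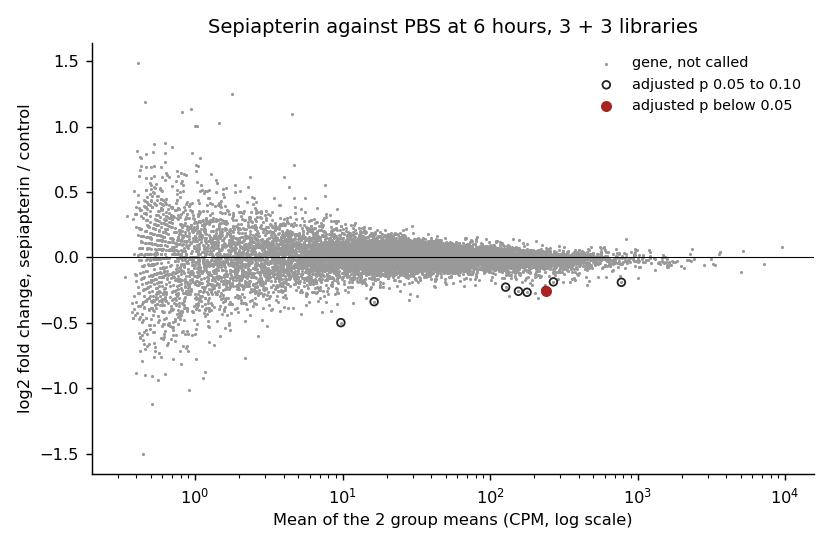
Log2 fold change of sepiapterin over control at 6 hours against the mean level in CPM on a log axis, for the 13657 genes tested. The scatter narrows as the level rises; the 1 gene with an adjusted p below 0.05 (red) and the 7 with 0.05 to 0.10 (open circles) all lie below 0.

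The 35 lower and 5 higher genes were looked up at 12 and 24 hours, where no library is shared with 6 hours. At 24 hours 31 of the 35 were again lower with sepiapterin, with a median log2 fold change of -0.13, while 49.4% of all genes tested at that time were lower. Leaving out single libraries at 24 hours gave 25 to 29 of the 35 and medians of -0.23 to -0.05. At 12 hours 13 of the 35 were lower and the median was 0.12, so most had the opposite sign. Leaving out single libraries at 12 hours gave 10 to 15 lower genes, and 13 were lower with controls taken by file header. Of the 35, 2 were called lower at 24 hours, where 1.47% of all genes were called in either direction. At 12 hours 4 were called lower and 1 higher, where 0.117% of all genes, or 16, were called. Leaving out single libraries moved that 16 from 1 to 495. With controls taken by file header, 6 were called lower and 1 higher, where 1.05% of all genes were called. ENSRNOG00000013552 was among the genes called lower at both times. The 5 higher genes had 3 of 5 higher at 12 hours and 3 of the 4 tested higher at 24 hours.

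**Figure D4:**
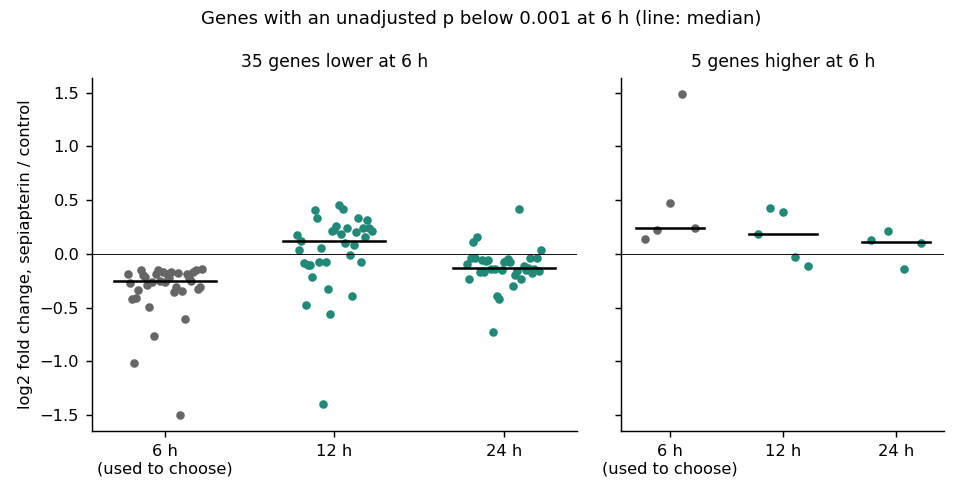
Log2 fold changes of sepiapterin over control for the 35 lower and 5 higher genes with an unadjusted p below 0.001 at 6 hours, in separate fits of 6, 12 and 24 hours; points are genes and lines are medians. The medians of the 35 genes are -0.25 at 6 hours, where the genes were chosen, 0.12 at 12 hours and -0.13 at 24 hours.

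Counts in each direction were also taken by level class. From 10 to 100 CPM, 214 genes were higher and 165 lower at an unadjusted p below 0.05, whereas from 100 to 1000 CPM 35 were higher and 158 lower. These are 5.33 and 7.58% of the genes in the 2 classes. The shift of either class was small: the median log2 fold change was 0.004 from 10 to 100 CPM and -0.009 from 100 to 1000 CPM. Control replicate 1 stood 0.016 log2 units above the other controls in the upper class. That step is of a single library and varies more than a difference between group means, so their sizes are not directly comparable. Without control replicate 1 the upper class held 23 higher and 72 lower genes, and without sepiapterin replicate 2 it held 31 and 92. The majority in the lower class turned over without control replicate 2, at 202 higher and 207 lower, and without sepiapterin replicate 3, at 229 and 252. When libraries were scaled by their size alone, the upper class held 57 higher and 103 lower genes and the lower class 305 and 119. Outside these 2 classes, the 62 genes of 1000 CPM or more had 0 higher and 6 lower (9.68%), with a median log2 fold change of -0.0296. From 1 to 10 CPM there were 94 higher and 75 lower genes (5.64%), with a median of 0.0108. Under 1 CPM there were 16 and 23 (4.15%), with a median of 0.002. From 1 CPM upward the median thus fell from class to class, an order that was not tested.

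Estimated changes were small over nearly all genes. The median log2 fold change was 0.0005 and the median size of a change, without sign, was 0.046. The 25th and 75th percentiles were -0.04 and 0.05, and the 5th and 95th were -0.18 and 0.19. An estimate past a 25% rise, or past the fall of 20% that mirrors it on the log scale, was found for 254 and 273 genes. These 527 genes had a median level of 0.793 CPM. For 103 genes it was 1.5-fold or more, and for 12 genes 2-fold or more. The 95% interval lay wholly past those limits for 10 genes, wholly past 1.5-fold for 2 and wholly past 2-fold for 0. Such intervals are per gene and are not adjusted for the number of genes.

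How small an effect is excluded was read from the 95% interval of each gene, taken at its end farther from no change. These intervals rest on the spread among the libraries, which may be technical, and may be too narrow for separate cultures. For 10322 of 13657 genes, or 75.6%, the whole interval lay between a 20% fall and a 25% rise, referred to as the 25% limit. It lay within 1.5-fold for 12108 genes, or 88.7%, and within 2-fold for 13269 genes, or 97.2%. For the median gene the interval ended at 1.13-fold, so a larger change of that gene lies outside it. The 75th percentile of these ends was 1.245-fold and the 95th was 1.8-fold.

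The excluded fold was smaller at higher levels up to 1000 CPM. Under 1 CPM the median end of the interval was 1.88-fold, 0 of 939 genes were within the 25% limit and 64.1% within 2-fold. From 1 to 10 CPM it was 1.33-fold, with 27% of 2999 genes within the 25% limit and 79.4% within 1.5-fold. From 10 to 100 CPM it was 1.12-fold, with 97.5% of 7111 genes within the 25% limit. From 100 to 1000 CPM it was 1.07-fold, with 98.9% of 2546 genes within the 25% limit, and for the 62 genes of 1000 CPM or more, all within that limit, it was 1.082-fold. A rise of 25% and the mirrored fall thus both lay outside the interval for nearly all genes above 10 CPM, and under 1 CPM no gene had both outside its interval.

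A few genes with many reads had wide intervals all the same. Of 9719 genes with 10 CPM or more, 10 had an interval reaching past 1.5-fold and 2 past 2-fold. The CV of the 10 in the more variable group was 19.5 to 134%. The library farthest from its group mean was sepiapterin replicate 3 in 6 of the 10, sepiapterin replicate 1 in 2 and control replicate 1 in 2. Over all 9719 genes those libraries were the farthest in 2196, 2018 and 1351.

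**Figure D5:**
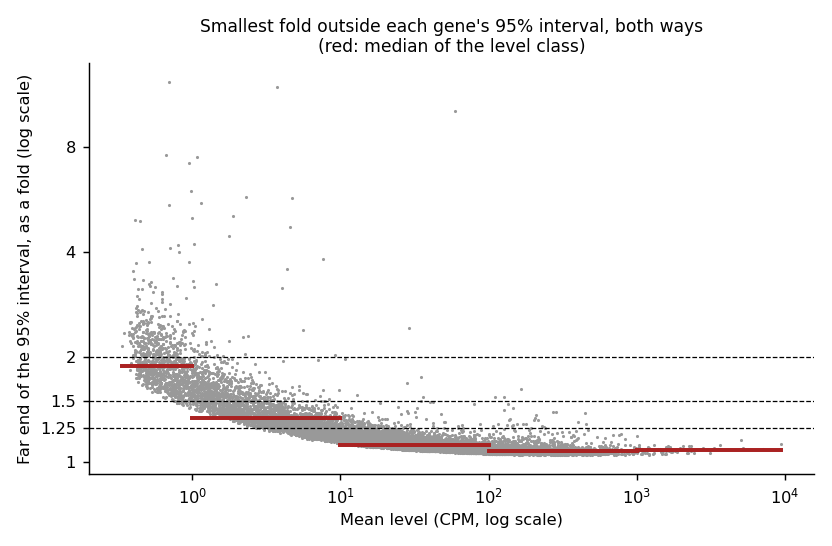
For each of the 13657 genes, the end of the 95% interval of the fold change farther from no change, as a fold in either direction, against the mean level in CPM (both axes logarithmic); dashed lines mark the 25% limit, 1.5-fold and 2-fold and red lines the median in each level class. The medians fall from 1.88-fold under 1 CPM to 1.12-fold between 10 and 100 CPM and 1.07-fold between 100 and 1000 CPM.

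The intervals at 6 hours were set beside the genes called at 24 hours, 196 in a fit of the 24-hour libraries alone, all of which were also tested at 6 hours. The 110 genes higher at 24 hours had a median log2 fold change of 0.38 there and 0.02 at 6 hours, and 69 of them were higher at 6 hours. The 86 lower genes had medians of -0.30 and -0.02, and 53 of them were lower at 6 hours. For 194 of the 196 the interval at 6 hours did not include the 24-hour estimate, and for 172 it lay within the 25% limit. The 24-hour estimates belong to genes picked for being called, their own error is not part of this count, and 24 hours is by label in the other library batch. The number of genes called at 24 hours was 1507 without sepiapterin replicate 3 and 219 without control replicate 1 of that time. It was 10 to 18 without any other single library, and the share with an interval at 6 hours that missed the estimate was 97.7 to 100% over these fits.

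The difference itself was tested gene by gene in joint fits with edgeR. For 24 hours against 6 hours, 0 of 14035 genes had an adjusted p below 0.05 in the fit of 21 libraries. The unadjusted p was below 0.05 for 1662 genes, and a gene that did not pass may still differ. With the 0-hour controls left out the number passing was 7 of 13970, with 1979 at an unadjusted p below 0.05. Between 12 and 6 hours it was 0 in both fits, with 1049 and 1354 genes at an unadjusted p below 0.05.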

How the data were processed

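For every library the authors deposited a table of raw counts over 32494 Ensembl gene rows. Its 5 summary rows were left out. The submitters' processing notes name cutadapt 1.8, STAR 2.5.2b, HTSeq 0.6.1 and the build Rnor_6.0. The counting's strand setting and the annotation release were not stated there, so overlapping genes and near-identical copies are uncertain. Reads aligned to several places (23.6 to 24.2% of tallied alignments) were not in the gene counts. Libraries were made from 500 ng of total RNA with stranded mRNA reagents, per the labels' protocols.

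The 6 libraries were fitted alone with edgeR 4.0.16 (R 4.3.3): filterByExpr with a minimum count of 10, TMM scaling, and robust quasi-likelihood tests with Benjamini-Hochberg adjustment over all genes tested. Intervals at 95% used the log2 fold change, an SE from the F statistic and the t distribution. RMS distances used log2 CPM with a prior count of 2. Alternatives were other scalings and filters, DESeq2 1.42.0, limma 3.58.1 voom, joint fits and fits without single libraries. The code was tested on simulated counts.

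Genes were to be named from symbol lists and by p-value. As no symbols matched (the table of assembly GRCr8 had 47357 genes and 0 Ensembl identifiers), the 2 genes with the smallest p in each direction and a mean log2 CPM of at least 1 are given by identifier. No sequence could be matched to an identifier, and none is printed. Members, lists and rules were chosen with earlier results of these data known.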

Additional observations from a re-analysis of the deposited data

How the results depend on the processing

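The number of genes called at 6 hours, 1, was also 1 with RLE size factors, with library size only and with CPM above 1 required in all 6 libraries. It was 3 with non-robust spread estimates, 8 at an adjusted p below 0.10, 10 with limma voom, 19 with DESeq2, 62 with no filter (19621 genes) and 0 in the joint fits of 21 and of 18 libraries, the latter added after seeing the data. The cause was not tested. Leaving out single libraries gave 0 to 47. Genes with an interval within the 25% limit numbered 9357 to 10484 over all alternatives, those within 1.5-fold 11489 to 12161 and those within 2-fold 12393 to 13395, against 10322, 12108 and 13269. The number of genes tested differed between alternatives. Within the 25% limit lay 53.4% of 19621 genes with no filter and 83.2% of 12406 with CPM above 1 required, against 75.6%. The lowest count within 2-fold, 12393, was out of those 12406 genes. None of the 4 named genes changed sign in 15 alternatives. ENSRNOG00000013552 was called in 10 of the 15. No paired analysis was possible because the labels give the groups no shared replicate numbers. Depth limits genes under 1 CPM.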
